A study of Homo sapiens with 70 samples.

Results

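A set of 10 genes of the matrix metalloproteinase system was followed across all 70 RNA-seq libraries of the series: the 6 metalloproteinases MMP2, MMP9, MMP11, MMP14, MMP16 and MMP19, and the 4 tissue inhibitors TIMP1, TIMP2, TIMP3 and TIMP4. They were taken by gene symbol, and all 10 were found among the 44503 annotated genes of each of the 3 count tables. Other MMP genes, MMP1 and MMP3 among them, were not part of the set. The first table held IMR90 cells, human lung fibroblasts that in every library, controls included, carried pLNCX2 ER:HRAS G12V, an oncogenic RAS fused to an oestrogen receptor domain and switched on by 4-hydroxytamoxifen (4OHT). Its groups were Grow (no 4OHT, pMSCV miR v control vector), Grow-shA1 (no 4OHT, pMSCV miR shHMGA1), OIS for oncogene-induced senescence (100 nM 4OHT for 6 days, control vector) and OIS-shA1 (the same with shHMGA1), with 8 libraries each. The second table held the same RAS cells with a pair of vectors, pSuper and pMSCV miR, in 5 groups of 5 libraries: Grow-v-v (no 4OHT, both empty vectors), OIS-v-v (6 days of 4OHT, both empty vectors), OIS-shCEBPB (pSuper shCEBPB), OIS-shp53 (pMSCV miR p53) and OIS-shCEBPB-shp53 (both), the last 3 also with 4OHT. The third table held H1299, a non-small cell lung carcinoma line for which the labels name no RAS construct and no 4OHT, with 7 control vector libraries and 6 with shHMGA1. Since Grow cells had neither the drug nor the days in culture, 4OHT, time and RAS activity cannot be told apart in any OIS comparison. Whether the libraries of a group came from separate cultures was given only for the series as a whole, as biological replicates, so the p-values measure the spread between these libraries.

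Metalloproteinases are zinc enzymes that cut collagens and other proteins of the extracellular matrix, and they are made as inactive proenzymes. TIMP proteins block them by binding their active site, and the pair MMP14 and TIMP2 also has an activating role, since proMMP2 is cleaved at the cell surface in a complex with both. Fibroblasts are a main source of these proteins, and secreted matrix proteases belong to the senescence-associated secretory phenotype. Messenger RNA levels, which are what was counted here, tell nothing of proenzyme cleavage or of the balance of active protein.

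The promoters of 5 of the 10 genes (MMP11, MMP14, TIMP1, TIMP3 and TIMP4) were found in the RefSeq promoter set. Shown here are those of the 3 genes whose transcripts moved most or were most abundant, from 250 bases before to 50 bases after the start (300 bases, 5′ to 3′, GRCh38.p14): MMP14 at chr14:22836335-22836634, TIMP1 at chrX:47582186-47582485 and TIMP3 at chr22:32801455-32801754, all on the plus strand. Capitals mark the GC box letters GGGCGG (or CCGCCC, the same letters on the other strand) and the AP-1-like letters TGAGTAA.
MMP14: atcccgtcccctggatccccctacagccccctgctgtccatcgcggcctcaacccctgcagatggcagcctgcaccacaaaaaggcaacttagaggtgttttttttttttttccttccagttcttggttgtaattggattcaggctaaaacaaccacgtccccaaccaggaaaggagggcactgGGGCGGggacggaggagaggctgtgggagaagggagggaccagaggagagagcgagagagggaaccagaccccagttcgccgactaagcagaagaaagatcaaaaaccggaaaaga
TIMP1: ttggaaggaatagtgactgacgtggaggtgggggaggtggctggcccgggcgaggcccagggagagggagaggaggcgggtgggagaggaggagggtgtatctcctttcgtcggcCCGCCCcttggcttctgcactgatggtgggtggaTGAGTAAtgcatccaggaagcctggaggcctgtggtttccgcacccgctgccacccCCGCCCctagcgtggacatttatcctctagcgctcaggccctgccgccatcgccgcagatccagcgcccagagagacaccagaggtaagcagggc
TIMP3: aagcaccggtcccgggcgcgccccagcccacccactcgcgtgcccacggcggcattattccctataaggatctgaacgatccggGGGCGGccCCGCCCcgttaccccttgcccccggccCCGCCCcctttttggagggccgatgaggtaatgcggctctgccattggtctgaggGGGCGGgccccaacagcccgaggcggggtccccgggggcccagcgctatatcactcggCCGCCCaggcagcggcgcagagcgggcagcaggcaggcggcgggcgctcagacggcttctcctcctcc
TGAGTAA was entered in the search as the AP-1 variant of TIMP1, so its match in TIMP1 was set by the choice of letters. It was found once, in TIMP1 and at 101 bases before its start. Of 27305 promoters of this length 2.62% held it on either strand, a share that does not measure how unusual the TIMP1 match is. GC boxes numbered 5 in TIMP3, 4 in MMP11, 2 in TIMP1, 1 in MMP14 and 1 in TIMP4, and 44.6% of all promoters held at least 1. No promoter of the 5 held the AP-1 letters TGANTCA (7.76% of all promoters), the C/EBP letters TTGCNNAA (10.6%) or the NF-kB motif (1.92%). GC content was 72.7% in TIMP3, 65% in TIMP1 and 55% in MMP14, against a median of 58.3% over all promoters. A match of letters is a description of the sequence and not a binding site.

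In hg19, the build of the counts, 3 of the 4 inhibitor genes lie within the span of synapsin genes on the other strand: TIMP1 at chrX:47441712-47446188 in SYN1, TIMP3 at chr22:33197687-33259030 in SYN3 and TIMP4 at chr3:12194551-12200851 in SYN2. The metalloproteinase genes include MMP2 at chr16:55423612-55540151, MMP9 at chr20:44637547-44645200, MMP11 at chr22:24110413-24126503, MMP14 at chr14:23305766-23318236 and MMP19 at chr12:56229217-56236744, and TIMP2 lies at chr17:76849059-76921469. Counting ignored strand, and fragments on more than 1 gene were left out, so exons shared with a neighbour give no counts to either gene. Shared exon bases were 0 for TIMP1 and TIMP3 with their hosts, 170 for TIMP4 with SYN2, 428 for MMP9 with SLC12A5-AS1, 747 for MMP11 with ENSG00000267954, 814 for MMP19 with TMEM198B and 367 for TIMP2 with ENSG00000267601. MMP11 also shared 218 with CHCHD10, TIMP2 198 with CEP295NL and MMP16 118 with ENSG00000253553. The values of the members with shared bases are the less certain ones for that reason. SYN3 was at or below 0.152 CPM (counts scaled to a common library size) in every IMR90 library, whereas SYN1 was measured at a few CPM and is given with TIMP1.

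Libraries held 1903607 to 24890797 counts. The lowest was OIS replicate 4, in which 3 counts correspond to 1.43 CPM, and every other library held at least 13904974. HMGA1 fell with its hairpin from 436–557 to 27–39.1 CPM in Grow, from 631–825 to 51.4–68.4 CPM in OIS and from 1716–1976 to 357–449 CPM in H1299. CEBPB went from 259–329 CPM in OIS-v-v to 26.6–42.7 CPM in OIS-shCEBPB and 28.4–38.9 CPM in the double knockdown. All 8 fibroblast markers were counted in IMR90, and their summed level fell with 4OHT, from 37343–46696 CPM in Grow to 5586–6888 CPM in OIS. Of the 8 markers 7 were lower and 0 higher, where 35.9% of all genes tested were lower and 38.8% higher. In the second table the sum went from 39198–51262 CPM in Grow-v-v to 13671–21062 CPM in OIS-v-v, and 6 of the 8 were lower (23.2% of all genes). With the HMGA1 hairpin the sum also fell in Grow, to 27927–33486 CPM (4 lower and 3 higher, against 15.1% and 14.8% of all genes). It was at 6203–7185 CPM in OIS-shA1 (1 lower and 5 higher, against 17.1% and 18.8%, with DCN at 2.10). In bulk RNA, fewer cells of a type and less RNA per cell cannot be told apart, and the part of these shifts in the results below was not tested. In H1299, COL1A2, COL3A1, DCN, LUM and THY1 and the epithelial markers EPCAM, CDH1 and KRT19 were under 1 CPM, while VIM was at 1633–1758 CPM and the summed epithelial list, nearly all KRT8 and KRT18, at 814–1138 CPM. With the HMGA1 hairpin VIM rose by 0.23 there, and KRT8 and KRT18 fell by 0.65 and 0.35 on the log2 scale. For MMP2, libraries 1 to 3 stood apart from libraries 4 and 5 in every group of the second table, while MMP9 in OIS-shCEBPB overlapped between these 2 sets. The labels do not name this split. Fits within the sets were added after the data were seen, so a call within a set is descriptive and does not replace the pooled result. Values within each set are given beside many of the pooled ones.

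The order of the transcripts per length was led by TIMP1 and MMP14 in every group of IMR90 but 1. In RPKM, that is CPM per kilobase of exon, Grow held TIMP1 at 586 ± 36.8 (SD, n = 8), MMP14 at 413 ± 28.9, TIMP3 at 276 ± 60.5, MMP2 at 189 ± 13 and TIMP2 at a mean of 156. TIMP3 and MMP2 overlapped between libraries, as did MMP2 and TIMP2, while TIMP1 and MMP14 did not. MMP19 at 8.33 and MMP16 at 3.50 RPKM came far below, and MMP11, TIMP4 and MMP9 were under 1 RPKM. In OIS-v-v, MMP14 at 928 and TIMP1 at 913 RPKM overlapped, and in the double knockdown MMP14 at 906 was followed by MMP2 at 354 and then TIMP1 at 283 RPKM, with no overlap among these 3. In H1299, TIMP1 at 152 RPKM led, before MMP14 at 31.3, TIMP2 at 15.6 and MMP16 at 7.52 RPKM, and MMP19 and TIMP4 were close to 0.

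**Figure D1:**
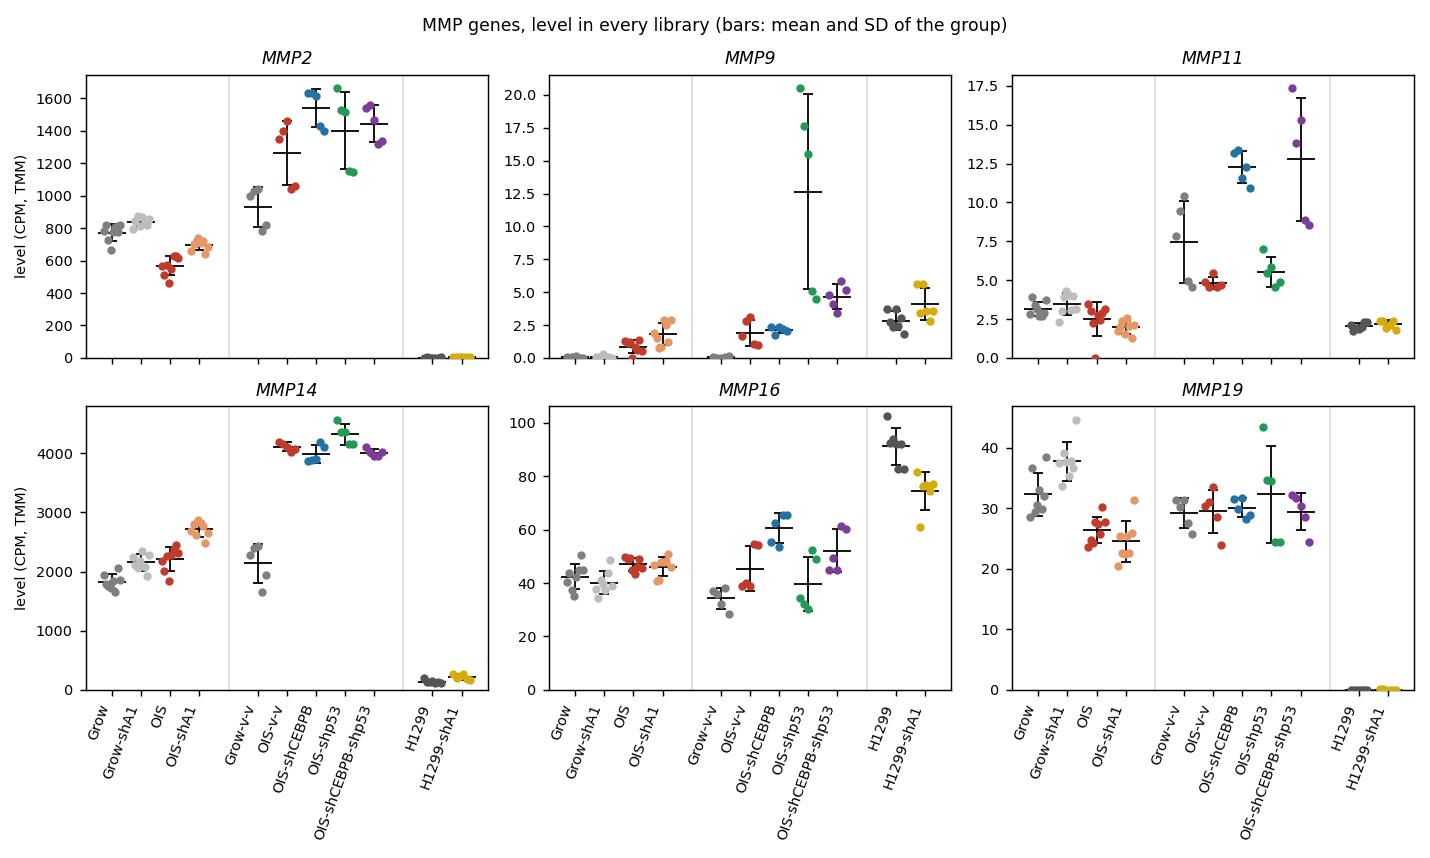
Level of 6 metalloproteinases in CPM (y axis of each panel) in the 11 groups (x axis). Each point is a library and the bars give the mean and SD. MMP14 was at 4015–4195 CPM in the OIS-v-v libraries against 1662–2437 CPM in Grow-v-v, and MMP9 was highest in OIS-shp53, at 4.49–20.5 CPM.

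The first comparison was OIS against Grow, in which 4OHT, time and RAS activity changed together. TIMP1 and MMP14 rose, whereas TIMP2, TIMP3 and MMP2 fell, and of the members that passed the filter on low counts TIMP2 moved furthest. Of the 9 members tested, 4 were higher (TIMP1, MMP14, MMP16 and TIMP4) and 4 lower (MMP2, MMP19, TIMP2 and TIMP3), against 74.8% of all 13304 genes called in this comparison (38.8% higher and 35.9% lower), so the share of members called was near that of all genes. The groups did not overlap for 4 of the 9, against 43.7% of all genes. The median log2 fold change of the members tested was -0.15, and that of all genes 0.03. In the second experiment, OIS-v-v against Grow-v-v, 5 members were higher (MMP2, MMP9, MMP14, MMP16 and TIMP1) and 3 lower (MMP11, TIMP2 and TIMP3) of the 10 tested, against 45.8% of 13344 genes (22.7% higher and 23.2% lower), and groups did not overlap for 6, against 35% of genes. TIMP1, MMP14 and MMP16 were higher, and TIMP2 and TIMP3 lower, in both experiments, while MMP2 was lower in the first and higher in the second. The 2 tables were not tested against each other.

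HMGA1 knockdown was then compared in each state, with Grow and OIS also serving as arms of the comparison above. TIMP3 fell in both states, and MMP14 and MMP2 rose in both. Grow-shA1 against Grow gave 3 higher (MMP2, MMP14 and MMP19) and 2 lower (TIMP1 and TIMP3) of 9 tested, against 29.9% of 13072 genes (14.8% higher and 15.1% lower), with no overlap for TIMP3 alone (7.64% of all genes). OIS-shA1 against OIS gave 5 higher (MMP2, MMP9, MMP14, TIMP1 and TIMP2) and 2 lower (MMP11 and TIMP3) of 10 tested, against 35.9% of 13327 genes (18.8% higher and 17.1% lower), with no overlap for 4 (9.29%). The test of the difference between the 2 effects, an interaction term, called 4 of 10 members, with a more positive effect of the hairpin in OIS than in Grow for TIMP1 and TIMP2 and a more negative one for MMP11 and MMP19, against 23.6% of 13903 genes (12.2% higher and 11.4% lower). Medians over the members tested were 0.03 in Grow and 0.12 in OIS, and those over all genes 0.01 and -0.00.

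**Figure D2:**
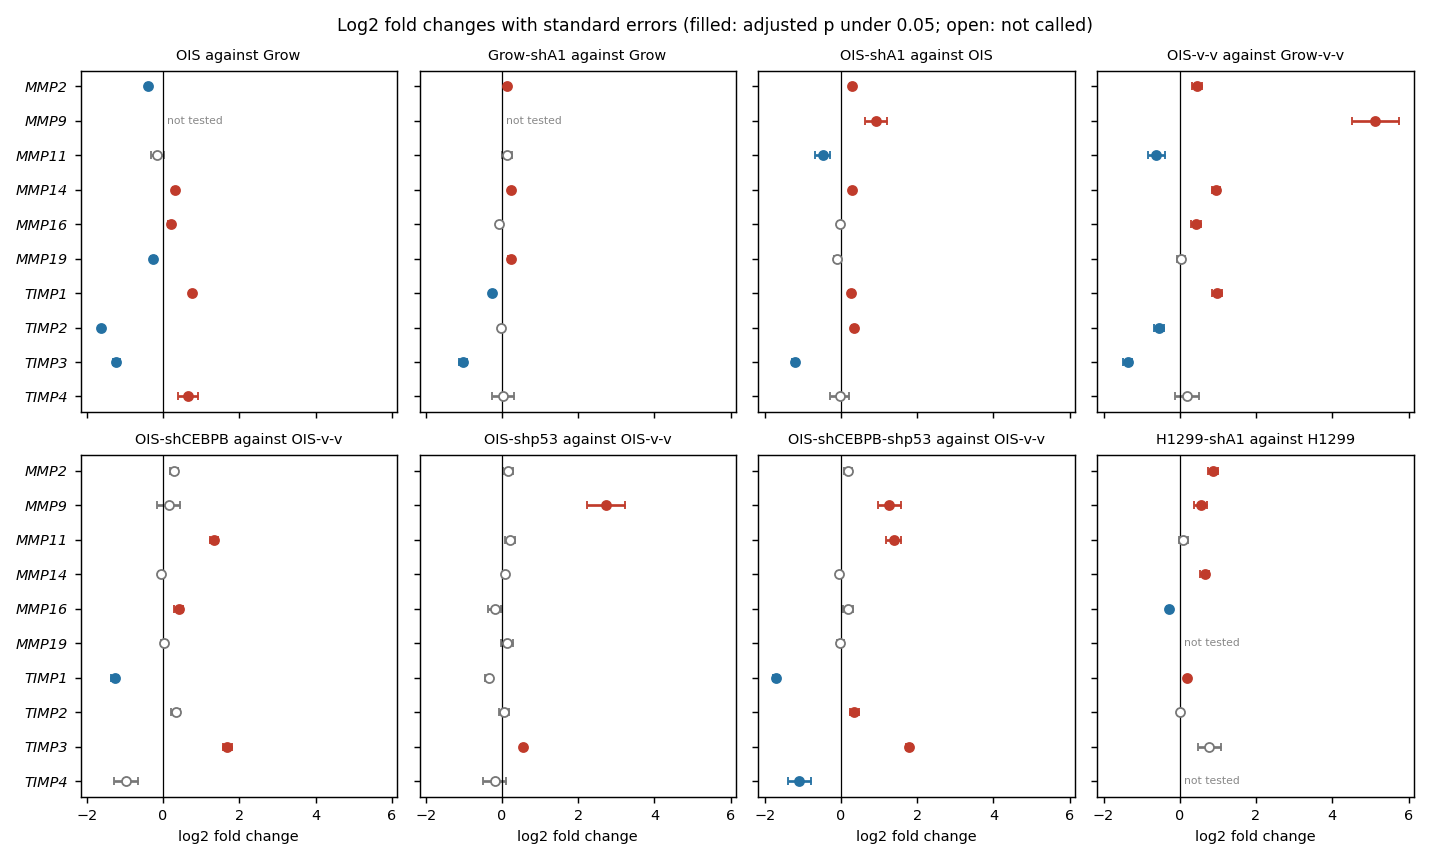
Log2 fold change (x axis) of each member (y axis) in 8 comparisons, 1 per panel, with its SE as a bar. Filled points passed the edgeR test at an adjusted p of 0.05. TIMP3 sits at -1.02 and -1.20 for HMGA1 knockdown and at 1.69 and 1.79 where CEBPB was knocked down.

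The hairpin against CEBPB, a transcription factor of the inflammatory programme of senescence, and the shp53 hairpin were compared with OIS-v-v, which all 3 comparisons share. TIMP1 fell and TIMP3 rose with shCEBPB, alone or with shp53, and MMP9 rose in both groups with shp53. OIS-shCEBPB gave 3 higher (MMP11, MMP16 and TIMP3) and 1 lower (TIMP1) of 10, against 17.1% of 13396 genes (9.09% higher and 8% lower), with no overlap for 3 (15% of genes). With the replicate number as a block the count was 7, since MMP2 at 0.30 (adjusted p = 0.000829), TIMP2 at 0.35 (0.00107) and TIMP4 at -0.98 (0.0115) then passed. Over all genes the block also called more, 4270 of 13396 against 2290 without it. OIS-shp53 gave 2 higher (MMP9 and TIMP3) and 0 lower, against 4.44% of 13378 genes (2.47% higher and 1.97% lower), with no overlap for 2 (7.29%), and the block brought the count to 5 by adding MMP2 at 0.15 (adjusted p = 0.0302), MMP16 at -0.21 (0.0154) and TIMP1 (given below). With the block 3037 of 13378 genes were called, against 594 without it. The double knockdown gave 4 higher (MMP9, MMP11, TIMP2 and TIMP3) and 2 lower (TIMP1 and TIMP4), against 33.6% of 13388 genes (17.1% higher and 16.5% lower), with no overlap for 4 (24.1%), and the block brought it to 8 by adding MMP2 at 0.19 (0.0183) and MMP16 at 0.19 (0.00769). Here the block called 5806 of 13388 genes, against 4502 without it. The interaction of the 2 hairpins called 0 members by edgeR, where it called 0.0432% of 13873 genes (6 genes, 0.0216% higher and 0.0216% lower). At an unadjusted p under 0.05 it held 682 genes and 2 members, MMP9 and TIMP3, and DESeq2 called 30 genes and 0 members. Medians over the members tested were 0.30 for OIS-v-v against Grow-v-v, 0.22 for shCEBPB, 0.10 for shp53, 0.19 for both hairpins and -0.11 for the interaction, while those over all genes lay between -0.01 and 0.01.

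The gelatinases MMP2 and MMP9 cleave denatured collagen and the type IV collagen of basement membranes. MMP2 was abundant and MMP9 scarce in IMR90. MMP2 ran from 664 through a median of 779 to 822 CPM in Grow and from 463 through 570.2 to 630.2 CPM in OIS, so every OIS library was below every Grow library (log2 fold change -0.40, SE 0.05, adjusted p = 1.73e-07). In the second experiment MMP2 was at 995, 1027, 1043, 782 and 818 CPM in Grow-v-v and at 1348, 1399, 1458, 1039 and 1060 CPM in OIS-v-v. The lowest OIS-v-v library was just below the highest Grow-v-v library, and the rise was 0.45 (SE 0.13, adjusted p = 0.0113), with 0.46 in libraries 1 to 3 and 0.39 in libraries 4 and 5. HMGA1 knockdown raised MMP2 by 0.13 in Grow (SE 0.04, adjusted p = 0.0196) and by 0.29 in OIS (SE 0.05, adjusted p = 8.13e-05), where OIS-shA1 libraries at 639.6–736 CPM were all above OIS. The difference between these effects, 0.16, did not pass (adjusted p = 0.0810, and as low as 0.0327 without Grow replicate 4, OIS replicate 6 or OIS replicate 7).

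MMP9 was near the limit of counting in growing cells. Grow held 6 counts of it over 8 libraries, with 4 libraries at 0, and OIS held 127, with only the shallow replicate 4 at 0. The low counts kept it out of the test of OIS against Grow, and without the filter it was called higher (4.24, edgeR adjusted p = 1.57e-10). The ratio of the rates was 22 with a 95% exact interval of 9.82 to 61.0 that covers counting error only. In OIS-v-v, MMP9 was at 1.69, 2.84, 3.08, 1.03 and 0.961 CPM, against at most 0.139 CPM in Grow-v-v (166 counts against 4, a ratio of 39.9, interval 15.3 to 148; edgeR adjusted p = 2.86e-05). The fitted log2 value, which depends on the few counts in Grow-v-v, was 6.65 in libraries 1 to 3 and 3.18 in libraries 4 and 5. HMGA1 knockdown moved the median in OIS from 0.977 to 1.70 CPM (log2 fold change 0.93, SE 0.29, adjusted p = 0.0138). In Grow the counts were 9 and 6, a ratio of 1.59 with an interval of 0.505 to 5.43 that includes 1. The interaction of 0.33 had an SE of 1.34 and was not called, so these counts cannot tell the states apart.

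In OIS-shp53, MMP9 reached 20.5, 17.7, 15.5, 5.07 and 4.49 CPM, all above OIS-v-v. This rise of 2.72 (SE 0.49, adjusted p = 0.00927) had the same direction in both sets, 2.83 in libraries 1 to 3 and 2.26 in libraries 4 and 5. With both hairpins, MMP9 was at 4.78, 4.13, 3.38, 5.88 and 5.18 CPM, a rise of 1.27 (SE 0.30, adjusted p = 0.00660), of 0.70 and 2.46 in the 2 sets. With shCEBPB alone it was at 2.33, 1.74, 2.35, 2.19 and 2.04 CPM, and the pooled difference of 0.15 was not called (adjusted p = 0.820), while libraries 4 and 5 alone gave a rise of 1.07 (adjusted p = 0.0143) and libraries 1 to 3 a value of -0.25. The interaction of the hairpins was -1.59 (SE 0.55, adjusted p = 0.836) over all libraries and was not called. In libraries 1 to 3 alone it passed, at -1.88 (adjusted p = 0.000139), and in libraries 4 and 5 it did not, at -0.88 (adjusted p = 0.200). The plot of MMP9 by library number shows the OIS-shp53 libraries in 2 separate levels.

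**Figure D3:**
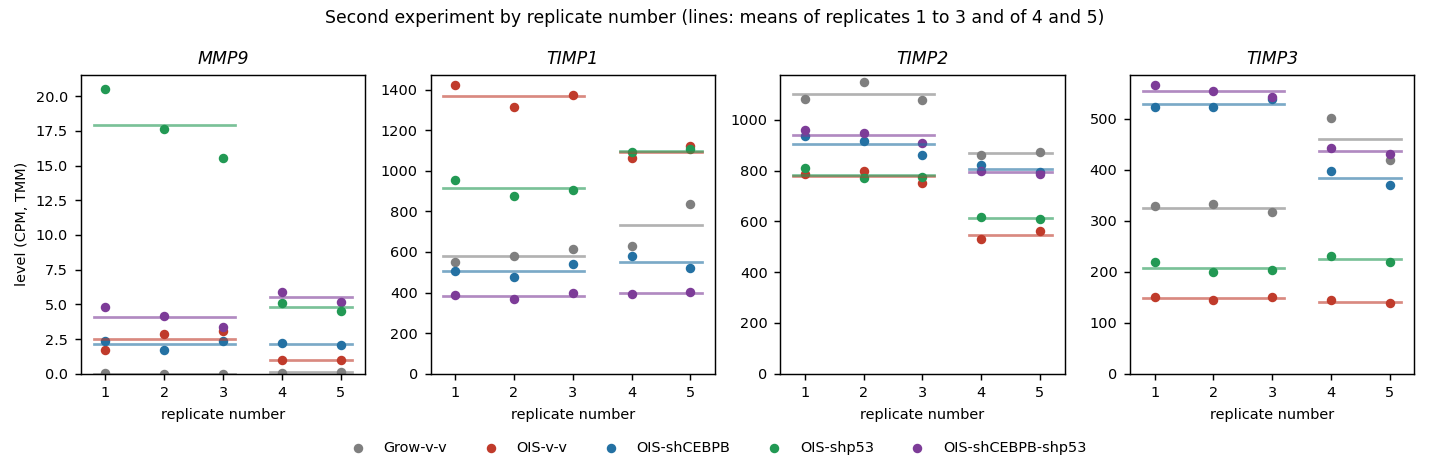
Level in CPM (y axis) of MMP9, TIMP1, TIMP2 and TIMP3 by library number 1 to 5 (x axis) in the 5 groups of the second experiment, with lines at the means of libraries 1 to 3 and of 4 and 5. MMP9 in OIS-shp53 was at 15.5–20.5 CPM in the first set and at 4.49–5.07 CPM in the second.

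Of the membrane-bound enzymes, MMP14 (MT1-MMP) degrades fibrillar collagen at the cell surface and activates proMMP2, and MMP16 (MT3-MMP) is related to it. MMP14 rose with 4OHT in both experiments. In the first it went from 1659–2066 CPM (median 1808) to 1848–2442 CPM (median 2279), which overlap, a rise of 0.32 (SE 0.05, adjusted p = 3.85e-06). In the second it went from 2275, 2397, 2437, 1662 and 1935 CPM in Grow-v-v to 4195, 4163, 4114, 4015 and 4073 CPM in OIS-v-v, without overlap, a rise of 0.95 (SE 0.11, adjusted p = 1.95e-05), or 0.82 and 1.17 within the sets. Over all libraries neither shCEBPB (-0.05) nor shp53 (0.07) nor both (-0.05) gave a called change. In libraries 1 to 3 alone shCEBPB was at -0.10 (adjusted p = 0.0409) and shp53 at 0.09 (adjusted p = 0.0393), and in libraries 4 and 5 they were at 0.02 and 0.04, not called. HMGA1 knockdown raised MMP14 by 0.24 in Grow (SE 0.05, adjusted p = 0.000265) and by 0.29 in OIS (SE 0.05, adjusted p = 3.31e-05), where OIS-shA1 at 2484–2873 CPM was above every OIS library, and the 2 effects differed by 0.05, which was not called (adjusted p = 0.652). MMP16 was at 35.2–50.4 CPM in Grow and 43.4–49.7 CPM in OIS, overlapping, with a rise of 0.20 (SE 0.06, adjusted p = 0.00348). It also rose by 0.42 in OIS-v-v (SE 0.13, adjusted p = 0.0188, but up to 0.0543 without OIS-v-v replicate 4 or 5) and by 0.41 with shCEBPB (SE 0.11, adjusted p = 0.0279), the latter a call lost in 6 of 10 fits without 1 library (adjusted p from 0.00902 to 0.0699). Within libraries 1 to 3 and within 4 and 5 these rises were 0.17 and 0.71 for 4OHT and 0.54 and 0.25 for shCEBPB, all called, and with shp53 MMP16 was at -0.28 (adjusted p = 0.000953) and -0.10 (adjusted p = 0.516).

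MMP11 (stromelysin-3), which is activated inside the cell by furin, and MMP19 were both low to moderate. MMP11 was at a few CPM, and its most marked value was with CEBPB knockdown. OIS-v-v held 4.91, 4.55, 5.47, 4.54 and 4.69 CPM, and OIS-shCEBPB 13.2, 13.4, 11.6, 12.3 and 11 CPM, a rise of 1.34 (SE 0.10, adjusted p = 2.12e-06), which was 1.34 and 1.32 within the sets. The double knockdown held 17.4, 13.8, 15.3, 8.85 and 8.52 CPM, a rise of 1.39 (SE 0.20, adjusted p = 0.000209; 1.63 and 0.90 within the sets), with shp53 alone at 4.54–7 CPM not called. With 4OHT, MMP11 fell by 0.61 on the log2 scale in the second experiment (SE 0.22, adjusted p = 0.0345), a call that failed in 7 of 10 fits without 1 library (adjusted p from 0.00633 to 0.0983) and was -0.88 in libraries 1 to 3 against -0.04 in libraries 4 and 5. In the first it was not called (-0.15, adjusted p = 0.412). HMGA1 knockdown lowered MMP11 in OIS by 0.48 on the log2 scale (SE 0.19, adjusted p = 0.0497), and 11 of 16 fits without 1 library lost that call (adjusted p from 0.00884 to 0.105).

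MMP19 was at 28.6–38.4 CPM in Grow and at 23.6–30.2 CPM in OIS. The difference of -0.26 (SE 0.07, adjusted p = 0.000765) was lost, at -0.07 and adjusted p = 0.312, when libraries were scaled by their totals alone, a scaling under which the median of all genes stood at 0.22. HMGA1 knockdown raised MMP19 in Grow by 0.23 (SE 0.06, adjusted p = 0.00658) and gave -0.10 in OIS (not called, adjusted p = 0.303), and the 2 effects differed by -0.33 (SE 0.10, adjusted p = 0.0140). MMP19 in the second experiment was called in none of the comparisons over all libraries, and its value there with 4OHT was 0.02. With shp53 it was at 0.25 in libraries 1 to 3 (adjusted p = 0.0115) and at -0.10 in libraries 4 and 5 (adjusted p = 0.653).

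TIMP1, a secreted inhibitor that also binds proMMP9, rose with 4OHT and fell with CEBPB knockdown. Grow libraries ran from 740 through a median of 811 to 885 CPM and OIS libraries from 1166 through 1334 to 1503 CPM, with no overlap (log2 fold change 0.76, SE 0.05, adjusted p = 1.29e-13). In the second experiment Grow-v-v was at 552, 580, 614, 629 and 838 CPM and OIS-v-v at 1422, 1314, 1372, 1064 and 1123 CPM. OIS-v-v lay above every Grow-v-v library, by 0.98 (SE 0.13, adjusted p = 6.00e-05), or 1.24 and 0.58 within the sets. With shCEBPB it stood at 507, 476, 542, 578 and 522 CPM, and with both hairpins at 386, 370, 399, 392 and 403 CPM. These falls were -1.27 (SE 0.09, adjusted p = 1.72e-06) and -1.70 (SE 0.09, adjusted p = 4.48e-08), and every library of the double knockdown was below every Grow-v-v library. Within the sets they were -1.44 and -1.01 with shCEBPB and -1.83 and -1.47 with both. OIS-shp53 was at 957, 878, 907, 1093 and 1105 CPM, overlapping OIS-v-v, with -0.35 (SE 0.10, adjusted p = 0.0700, but 0.0139 with the replicate block and 0.0279 without OIS-v-v replicate 4). Within the sets it was -0.58 in libraries 1 to 3 (adjusted p = 2.26e-11) and 0.01 in libraries 4 and 5 (adjusted p = 0.962). The interaction of the hairpins was 0.18 in the first set (adjusted p = 0.153) and -0.47 in the second (adjusted p = 0.00104). SYN1, the gene that surrounds TIMP1 on the other strand, was lower by 0.69 and 0.83 on the log2 scale with shCEBPB and with both hairpins, from a mean of 4.11 CPM in OIS-v-v to 2.56 CPM in OIS-shCEBPB. It was also lower in OIS-v-v than in Grow-v-v, by 0.42, where TIMP1 was higher, and the part of reads from either gene in the other was not tested.

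The HMGA1 hairpin moved TIMP1 in opposite directions in the 2 states. Grow-shA1 was at 597–848 CPM (median 660.1) and below Grow by 0.25 on the log2 scale (SE 0.06, adjusted p = 0.00123), and OIS-shA1 was at 1416–1928 CPM (median 1581) and above OIS by 0.27 (SE 0.06, adjusted p = 0.000822). Both pairs overlapped, and the effects differed by 0.52 (SE 0.09, adjusted p = 1.39e-05).

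**Figure D4:**
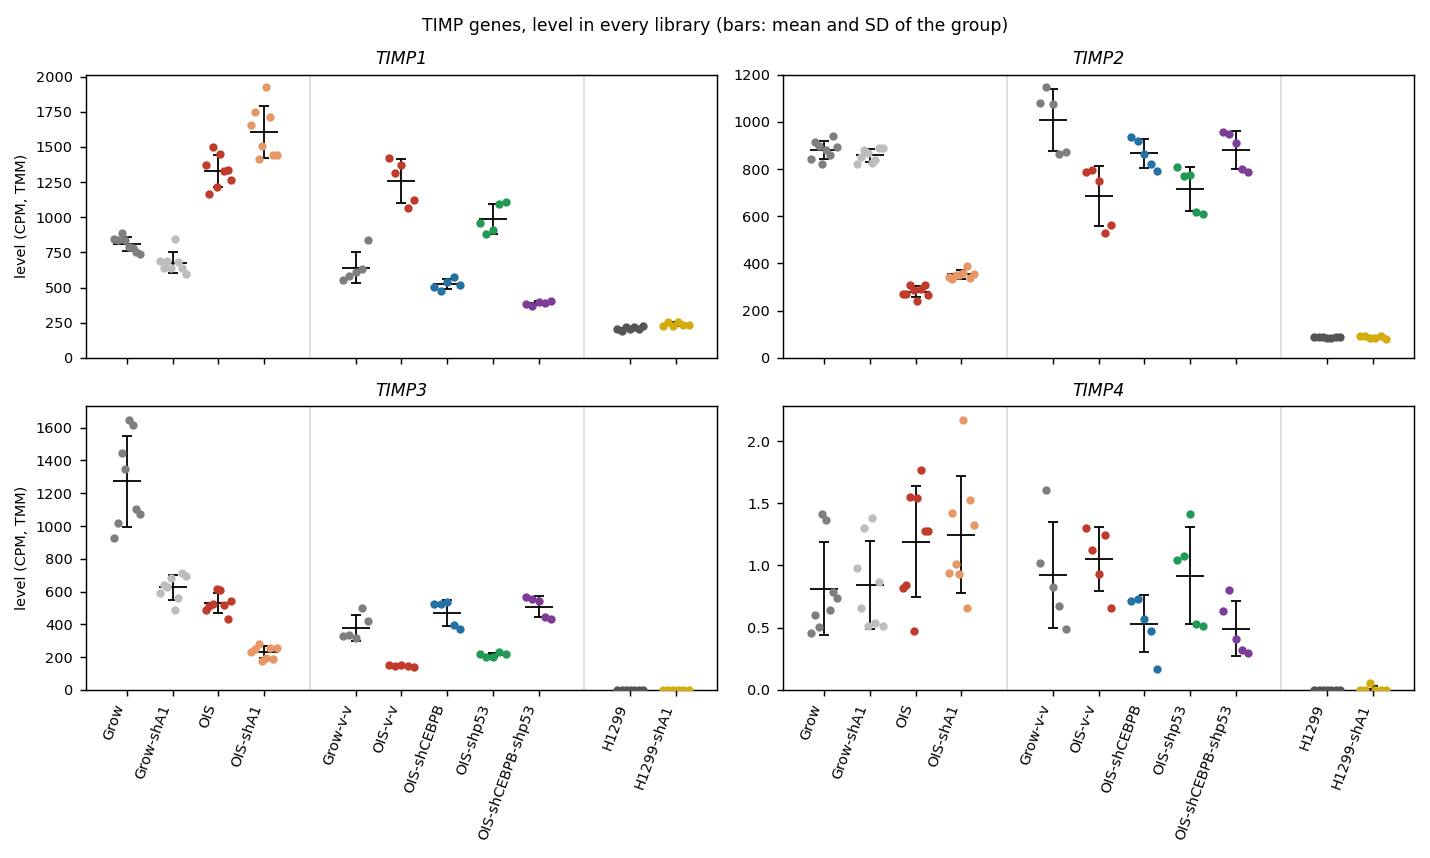
Level of the 4 inhibitors in CPM (y axis of each panel) in the 11 groups (x axis). Points are libraries and bars the mean and SD. TIMP1 was at 476–578 CPM in OIS-shCEBPB against 1064–1422 CPM in OIS-v-v, and TIMP2 at 241–309 CPM in OIS against 821–939 CPM in Grow.

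TIMP2, the inhibitor that also helps MMP14 to activate proMMP2, gave the largest fall of the members in OIS against Grow. Grow was at 821–939 CPM (median 886) and OIS at 241–309 CPM (median 279), without overlap (-1.62, SE 0.05, adjusted p = 3.92e-22). In the second experiment it went from 1081, 1147, 1077, 862 and 872 CPM to 787, 797, 751, 529.8 and 564 CPM, again without overlap, but by -0.54 (SE 0.14, adjusted p = 0.00577), a smaller value, and the 2 experiments were not tested against each other. HMGA1 knockdown left it at 821–889.98 CPM in Grow (-0.03, SE 0.04, adjusted p = 0.509) and raised it in OIS to 334–390.4 CPM, above every OIS library (0.34, SE 0.05, adjusted p = 2.51e-06). The interaction was 0.37 (SE 0.06, adjusted p = 8.40e-06). With shCEBPB it was at 937, 917, 862, 821 and 793 CPM (0.33, SE 0.12, adjusted p = 0.0798, passing with the block as given above), and with both hairpins at 957, 947, 909.7, 799 and 786 CPM (0.35, SE 0.12, adjusted p = 0.0452, from 0.0306 to 0.0977 in fits without 1 library). Within libraries 1 to 3 and within 4 and 5 TIMP2 was at -0.50 and -0.66 for 4OHT, 0.21 and 0.55 for shCEBPB and 0.27 and 0.53 for both hairpins, all called.

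TIMP3, the inhibitor that binds the extracellular matrix and also blocks several ADAM proteases, fell with 4OHT and with HMGA1 knockdown and rose with CEBPB knockdown. Grow ran from 928 through 1229 to 1647 CPM, Grow-shA1 from 485 through 634 to 714 CPM, OIS from 431 through 521 to 615 CPM and OIS-shA1 from 179 through 242 to 278 CPM. OIS was below Grow by 1.23 on the log2 scale (SE 0.10, adjusted p = 4.75e-12), without overlap. The hairpin lowered it by 1.02 in Grow (SE 0.10, adjusted p = 1.51e-08) and 1.20 in OIS (SE 0.08, adjusted p = 4.06e-12), again without overlap in either, and the interaction of -0.18 was not called (SE 0.14, adjusted p = 0.376). Grow-v-v held 328, 332, 317, 502 and 420.4 CPM and OIS-v-v 150.3, 144, 150.4, 144 and 139 CPM. Every OIS-v-v library was under every Grow-v-v library (-1.37, SE 0.13, adjusted p = 3.20e-06; -1.13 and -1.70 within the sets). With shCEBPB it was at 524, 524, 539, 399 and 369.9 CPM, with shp53 at 219, 199, 204, 230.3 and 219.9 CPM, and with both at 566, 554, 542, 443 and 432 CPM. All 3 were above OIS-v-v without overlap, by 1.69 (SE 0.11, adjusted p = 8.97e-07), 0.56 (SE 0.05, adjusted p = 9.45e-05) and 1.79 (SE 0.08, adjusted p = 2.72e-08), and the first and the third overlapped Grow-v-v. Within the sets these were 1.83 and 1.43, 0.48 and 0.67, and 1.90 and 1.62. The interaction of -0.45 (SE 0.14, adjusted p = 0.653) was not called over all libraries. Within libraries 1 to 3 and within libraries 4 and 5, sets chosen after the data were seen, it passed at -0.42 and -0.48 (adjusted p = 5.01e-05 and 0.000795). With the block it was at -0.45 with an adjusted p of 0.0551.

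TIMP4 was near 1 CPM throughout IMR90, at 0.455–1.42 CPM in Grow and 0.477–1.76 CPM in OIS, overlapping. Its rise of 0.65 (SE 0.26, adjusted p = 0.0251) was lost in 6 of 16 fits without 1 library (adjusted p from 0.00691 to 0.0640). It was lower in the double knockdown (-1.09, SE 0.30, adjusted p = 0.0153), and with shCEBPB alone it was at -0.98 (SE 0.32, adjusted p = 0.0556, and 0.0355 without OIS-v-v replicate 5), or -0.75 (adjusted p = 0.0591) and -1.52 (adjusted p = 0.0377) within the sets.

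Shifts of TIMP1, TIMP2 and TIMP3 in different directions changed the makeup of the inhibitor transcripts per length, which was described without a test. TIMP1 made up 57.6 ± 3.68% (SD, n = 8) of summed TIMP RPKM in Grow, 62.9 ± 3.96% in Grow-shA1, 85.3 ± 1.39% in OIS and 91.1 ± 1.13% in OIS-shA1. In the second experiment it was 63.7 ± 4.44% (n = 5) in Grow-v-v, 85.6 ± 0.604% in OIS-v-v, 59.8 ± 3.86% in OIS-shCEBPB, 80.3 ± 2.90% in OIS-shp53 and 51.6 ± 3.29% in the double knockdown. TIMP3 had 26.9% of the sum in Grow, 10.2% in OIS and 3.93% in OIS-shA1, and 2.99%, 16% and 5.23% in OIS-v-v, OIS-shCEBPB and OIS-shp53. The ratio of TIMP1 to TIMP3 RPKM was thus 2.21 in Grow, 3.72 in Grow-shA1, 8.48 in OIS and 24 in OIS-shA1. The same ratio was 5.75 in Grow-v-v, 28.9 in OIS-v-v, 3.84 in OIS-shCEBPB, 15.4 in OIS-shp53 and 2.61 in the double knockdown. Summed TIMP over summed member MMP RPKM was 1.67 in Grow, 1.11 in Grow-shA1, 1.74 in OIS and 1.61 in OIS-shA1, and every Grow-shA1 library, at most 1.198, lay below every Grow library, at least 1.42. It was 1.03 in Grow-v-v, 0.851 in OIS-v-v, 0.492 in OIS-shCEBPB, 0.672 in OIS-shp53 and 0.430 in the double knockdown. MMP14 made most of the member MMP sum in every group. MMP genes outside the set, such as MMP1 and MMP3, are not in that sum, so the ratio does not describe all MMP transcripts.

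**Figure D5:**
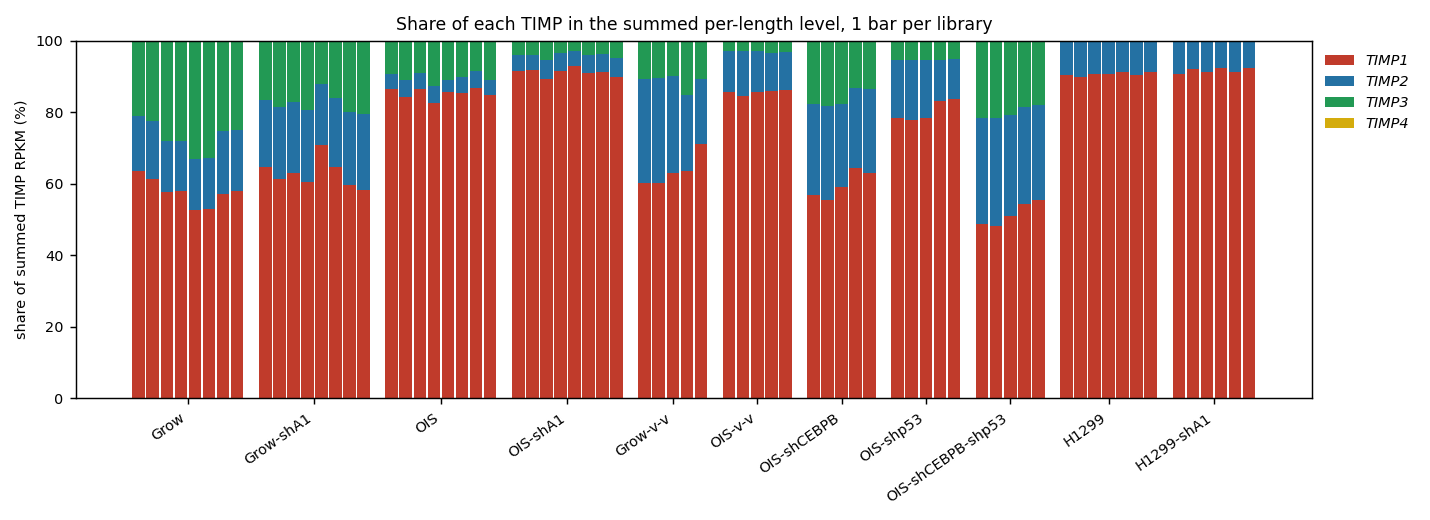
Share in percent (y axis) of TIMP1, TIMP2, TIMP3 and TIMP4 in the summed TIMP RPKM of each library (x axis, by group), with TIMP4 too small to see. TIMP1 held a mean of 85.3% in OIS and 51.6% in OIS-shCEBPB-shp53.

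H1299 differed from the fibroblasts in level. TIMP3 was at 0.174–1.08 CPM, MMP2 at 1.78–2.77 CPM and TIMP1 at 192–226 CPM, and MMP19 and TIMP4 were too low to test. HMGA1 knockdown gave 4 higher (MMP2, MMP9, MMP14 and TIMP1) and 1 lower (MMP16) of 8 members tested, against 15.6% of 14840 genes (8.65% higher and 6.93% lower), and groups did not overlap for 3 (5.21% of genes), with a median of 0.37 over the members against 0.00 over all genes. MMP2 rose from 1.78–2.77 (median 2.26) to 3.23–4.96 CPM (median 3.86), a log2 fold change of 0.86 (SE 0.13, adjusted p = 0.000145), and TIMP1 rose to 227–259 CPM (0.19, SE 0.04, adjusted p = 0.00406). MMP14 went from 114–194 to 162–269.6 CPM, overlapping (0.65, SE 0.12, adjusted p = 0.00103). MMP16 fell from 82.6–102.4 to 61.1–81.7 CPM, without overlap (-0.29, SE 0.06, adjusted p = 0.00287). The rise of MMP9 by 0.54 (SE 0.18, adjusted p = 0.0461) was lost in 8 of 13 fits without 1 library (adjusted p from 0.0249 to 0.137). TIMP2 was at 84.0–90.4 CPM and stayed at 79.8–94.4 CPM (0.00, SE 0.04, adjusted p = 0.987), and TIMP3 was not called (0.77, SE 0.30, adjusted p = 0.0822, but 1.13 with 0.00320 without H1299 replicate 4) at no more than 1.08 CPM in any library. In IMR90, MMP2 and MMP14 were also higher with this hairpin in both Grow and OIS, and MMP9 was higher in OIS. TIMP1 was higher in OIS but lower in Grow (-0.25). TIMP2, TIMP3 and MMP11 were called in OIS (0.34, -1.20 and -0.48) and not in H1299, while MMP16 was called in neither state of IMR90. These comparisons of other cells were not tested against that in H1299.

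The pathway was followed in 4 further lists. Among the 13 regulators (proteases such as PLAU and FURIN, inhibitors such as RECK, and receptors), 3 of 12 tested were higher and 8 lower in OIS (74.8% of all genes called), with a median of -0.52 against 0.03 over all genes. RECK, a membrane-anchored inhibitor of several MMPs, gave the largest fall, -2.69 (SE 0.06, adjusted p = 1.92e-25), and PLAU, urokinase, the largest rise, 0.72. In OIS-v-v the count was 2 higher and 2 lower of 12 (median 0.13, 45.8% of all genes called), with RECK at -1.68 (adjusted p = 6.74e-07) and PLAU at 1.04. HMGA1 knockdown gave 3 higher and 2 lower of 12 in Grow (29.9%) and 6 higher and 3 lower of 12 in OIS (35.9%). With shp53 1 of 13 was higher, ITGB3 at 0.32, and 0 lower (4.44%). The double knockdown gave 1 higher and 3 lower of 12 (33.6%), and H1299 5 higher and 0 lower of 12 (15.6%), with PLAU at 0.81.

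The 19 ADAM and ADAMTS genes, proteases that shed membrane proteins or cut proteoglycans and procollagens, gave 4 higher and 12 lower of 19 tested in OIS (74.8% of all genes called, median -0.50 against 0.03 over all genes), with ADAMTS2, a procollagen protease, at -2.09 and ADAMTS3 at 1.26. In OIS-v-v 6 were higher and 3 lower of 19 (45.8%, median 0.02). HMGA1 knockdown gave 1 higher and 6 lower of 18 in Grow (29.9%) and 5 higher and 8 lower of 19 in OIS (35.9%), and ADAMTS3 was at -1.21 and -1.28 in these. With shCEBPB 5 of 18 were higher and 0 lower (17.1%), with shp53 1 higher and 2 lower of 19 (4.44%), and with both 6 higher and 3 lower of 18 (33.6%). Of 8 other MMP genes listed, a list without MMP1 and MMP3, MMP28 was not matched by symbol. Only 3 passed the filter on low counts in IMR90. MMP15, a membrane-type enzyme, was higher in OIS (0.72) and OIS-v-v (1.48), and MMP17, another, was higher with HMGA1 knockdown in Grow (0.70) and OIS (0.52). MMP24 was lower in OIS (-0.65, adjusted p = 0.00815) and in Grow-shA1 (-0.58, adjusted p = 0.0488), and MMP15 was lower in the double knockdown (-0.78) and in H1299-shA1 (-0.52). Percentages beside the counts of the lists are the shares of all genes called in that comparison, as given above with the members.

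Across the 32 libraries of the first table, each member's most similar gene was described by Pearson's r of log2 CPM, with no test, since the libraries fall into 4 groups that set much of r. TIMP2 was most like MSRB3 (0.996), TIMP1 like VEGFA (0.967), MMP2 like ITM2C (0.959), TIMP3 like CTNND1 (0.950), MMP14 like BRSK1 (0.940) and MMP9 like ARMCX1 (0.924). MMP16 and TIMP4 had the least close partners, PLEKHA8 (0.790) and GGA1 (0.709). Among the members, MMP9 was closest to TIMP1 (0.881) and MMP2 to TIMP2 (0.838), and the most opposed pairs were TIMP3 with MMP14 (-0.921) and TIMP1 with TIMP2 (-0.890).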

How the data were processed

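RNA-seq was done on 57 IMR90 and 13 H1299 libraries. The authors aligned reads with STAR to hg19 and deposited raw counts per gene, made with featureCounts over GENCODE19 exons. Per the file headers, the first table counts fragments and the H1299 table reads, both without strand. The second table has no header. Kit and instrument of each library are not given in the sources used here. Symbols matched 42662 of 44503 gene IDs.

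From the counts, CPM with TMM factors was computed per table. Every comparison used edgeR 4.0.16 in R 4.3.3 (quasi-likelihood, filterByExpr with a minimum of 10, Benjamini-Hochberg over all genes tested, adjusted p under 0.05, no limit on fold), the edgeR test being the kind the study used. The SE of a log2 fold change is its size over the root of F. The calling of changes by this test, and not the SE, was tried on simulated data, with an outcome not given here. Intervals and floors cover counting error only. No 2 libraries agreed within sampling noise. The named genes were the members and, of each list, the largest called rise and fall. The members and lists were chosen with earlier results of these data known. Values of 1 targeted gene and 1 list gene are not reported here. Alternatives were DESeq2 1.42.0, other filters and thresholds, scaling by totals alone, a replicate block, leaving out each library and, added later, the 2 sets of the second experiment.

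In the second experiment, deviations from group means of same-numbered libraries correlated at 0.130 to 0.389 for OIS-v-v with Grow-v-v. For the knockdowns with OIS-v-v they correlated at 0.457 to 0.740. Same-numbered libraries also lie in the same set, so these values cannot tell pairing by number from the split between the sets. Of 5 libraries, 2 of the double knockdown and 4 of OIS-shp53 correlated best with the OIS-v-v library of their own number. The replicate block was not tested apart from that split. The labels give the numbers but not what they share.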

Additional observations from a re-analysis of the deposited data

Results flagged for a closer look

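A library far from the rest was looked for in 109 groups, where chance gives about 1 in 20 for normally distributed values. That rate does not apply to groups of few counts, such as TIMP4 in H1299-shA1. In 9 of the 109 groups the gap to the nearest library took a large share of the group's range. In the first experiment these were MMP9 in Grow-shA1 replicate 4 (share 0.775; 0.291 CPM against 0–0.0655), MMP11 in OIS replicate 4, the shallow library (0.643; 0 counts against 2.24–3.48 CPM), TIMP1 in Grow-shA1 replicate 5 (0.619; 848 CPM against 597–693) and TIMP2 in OIS-shA1 replicate 6 (0.553; 390.4 CPM against 334–359). In the second, TIMP1 in Grow-v-v replicate 5 was at 838 CPM against 552–629 (0.729). In H1299 they were TIMP3 in H1299 replicate 4 (0.688; 1.08 CPM against 0.174–0.456), MMP16 in H1299-shA1 replicate 3 (0.64; 61.1 CPM against 74.3–81.7), TIMP3 in H1299-shA1 replicate 7 (0.877; 0.979 CPM against 0.669–0.707) and TIMP4 in H1299-shA1 replicate 4 (1; a single count).

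The effect of HMGA1 knockdown differed between OIS and Grow, by the interaction term of edgeR, for MMP11 (-0.61), MMP19 (-0.33), TIMP1 (0.52) and TIMP2 (0.37). For TIMP1 the effects had opposite signs, for TIMP2 only the one in OIS was called, and the difference for MMP11 was lost in 21 of 32 fits without 1 library.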

How the results depend on the processing

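No called member changed direction under any alternative. Of 2391 fits of single members, 2238 stayed on the same side of the threshold (called or not), 111 lost a call and 42 gained one, and 81 values called in neither fit changed sign, the largest being 0.297. A fold limit of 1.5 left 4 members called in OIS against Grow, 1 in Grow-shA1 against Grow, 2 in OIS-shA1 against OIS, 1 in the interaction of shA1 with OIS, 5 in OIS-v-v against Grow-v-v, 1 in OIS-shp53 and 2 in H1299-shA1. An adjusted p under 0.01 left 2 in the interaction and 5 in OIS-v-v. Shares of all genes at these limits are not given here, so these counts describe the members alone. With the replicate block, 7 were called in OIS-shCEBPB and 5 in OIS-shp53. In libraries 1 to 3 alone, chosen after seeing the data, 7 were called with shCEBPB, 7 with shp53 and 3 in the interaction of the hairpins, and in libraries 4 and 5 alone 8 with shCEBPB and 2 in that interaction; the cause was not tested. Over all genes, libraries 1 to 3 gave 4408 calls of 13541, 4578 of 13447 and 463 of 13947 in these comparisons. Libraries 4 and 5 gave 3302 of 13445 with shCEBPB and 294 of 13814 in the interaction.

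Without 1 library the counts ran from 7 to 8 in OIS, 5 to 5 in Grow-shA1, 6 to 7 in OIS-shA1, 3 to 5 in the interaction, 6 to 8 in OIS-v-v, 3 to 5 with shCEBPB, 2 to 3 with shp53, 5 to 6 with both, 0 to 0 in the interaction of the hairpins and 4 to 6 in H1299. Shares of all genes in the fits without 1 library are not given here. Over all genes, shp53 gave 594 calls, 1092 by DESeq2 and 3037 with the block, and shCEBPB 2290 and 4270 with the block. The interaction of the hairpins gave 6, 30 by DESeq2, 104 with the block and 3 with no filter. In the first experiment and H1299 the numbers did not pair the libraries (lowest correlations of -0.0441, -0.202, -0.468 and -0.304), and the block changed no count of members past 1.5 times there. Scaling by totals alone moved the median of all genes to 0.22 in OIS against Grow and -0.13 in the interaction. MMP9 in growing cells rested on few counts (6 in Grow and 4 in Grow-v-v).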
